A study of Caenorhabditis elegans with 4 samples.

Results

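MEP-1 peaks on chromosome IV of Caenorhabditis elegans outside its pair of piRNA domains were described by density, width, spacing and gaps. The members were chosen by position alone, as the peaks whose midpoint lay outside the windows from 4.5 to 7 Mb and from 13.5 to 17.2 Mb, here called the left and the right piRNA domain. This left 962 of the 1371 peaks on chromosome IV and of the 11448 in the list (8.40% of the list). The list itself kept 73.9% of the 15494 regions the peak caller had tested, a number worked out from the q-values. It is a share that holds for all chromosomes together and from which nothing is read about the members.

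The libraries came from embryos of strain OP70, which carries the integrated transgene wgIs70 (mep-1 with TY1, EGFP and FLAG tags, and unc119) made by bombardment in an unc119(ed3) background, and were hermaphrodite by label. There were 2 libraries of ChIP DNA, taken with a goat antibody against GFP, and 2 of input DNA, grown at 20 °C and crosslinked with 2% formaldehyde, and every library carries the transgene. The labels give neither an age of the embryos nor the promoter that drives the transgene, and no untagged strain was analysed here. All peaks stand in 1 combined list on genome build WormBase WS180, so no value belongs to a single library, replicates could not be compared and the depth is unknown.

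MEP-1 is a zinc-finger protein known to act with the chromatin remodeller LET-418/Mi-2 and the histone deacetylase HDA-1 in keeping germline genes silent in somatic cells. In C. elegans most genes for piRNAs, the small RNAs bound by the Argonaute protein PRG-1 in the germline, lie in broad domains on chromosome IV, embedded among ordinary genes. The members are the peaks in the remaining chromosome. Gene names and sequences are not printed, because the gene table at hand describes another build and no genome of the files' build was used here.

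The remaining chromosome falls into 3 stretches. The first stretch runs from 1 to 4500000 and held 416 members. The middle stretch runs from 7000001 to 13.5 Mb and held 524. The end stretch runs from 17200001 to the last peak of the chromosome, which ended at 17463455, and held 22 members over 0.263 Mb, too short for any full bin of 500 kb.

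The members lay at 85.4 per Mb, with a 95% exact Poisson interval of 80.1 to 91.0 that covers counting error only. Between the 22 full bins of 500 kb the SD was 15.02 per Mb and single bins ranged from 52 to 108. The first stretch carried 92.4 ± 14.4 per Mb (SD, 9 bins), the middle stretch 80.6 ± 13.9 per Mb (SD, 13 bins) and the end stretch 83.5 per Mb. The bins of the first and the middle stretch overlapped. The SD describes single bins and is not the error of the difference of 11.8 per Mb between these stretches. Their Poisson intervals, for counting error only, were 83.8 to 101.8 and 73.9 to 87.8 per Mb. The difference was not tested. It depended on the narrow and weak peaks: with peaks of at least 200 bp the sign turned, to -5.76 per Mb, and with the 5724 peaks of lowest q in the list, out of 11448, it was 0.137 per Mb.

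The piRNA domains themselves held 409 peaks, or 66.0 ± 27.8 per Mb (SD, 12 bins). The left and the right domain differed in density, with overlapping bins. The left domain carried 82.8 ± 33.1 per Mb (SD, 5 bins), which lies between the values of the first and the middle stretch. The right domain carried 54.6 ± 17.4 per Mb (SD, 7 bins), with bins from 36 to 82. The bins of the members and of the domains overlapped, and no test of the difference of 19.4 per Mb was made, since bins of 1 list are not replicates. It was 11.1 per Mb with the 5724 peaks of lowest q, where the members lay at 42.3 per Mb. That cut kept 476 of the 962 members and 193 of the 409 domain peaks (47.2%). Keeping fewer peaks lowers a difference per Mb by itself, so the smaller value is not read as a weaker contrast. On the other chromosomes the density ranged from 100.8 per Mb on V to 149 on III, above the members' value on each.

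At a finer scale, none of the 112 full bins of 100 kb was without a member. That depends on where the bin borders fall, since gaps of 144 and 119 kb in the middle stretch were longer than a bin. The median bin held 8 members, 15 bins held from 1 to 4 and 9 bins held 15 or more. The Fano factor, the variance of these bin counts divided by their mean, was 1.78 for the members, and would be 1 for independent positions at an even density. It was 2.16 in the first stretch and 1.46 in the middle stretch, against 3.37 in the left and 2.63 in the right piRNA domain. Other chromosomes ranged from 1.85 on X to 3.72 on V. With the 5724 peaks of lowest q the members' value was 1.01. Removing peaks at random also brings a factor above 1 nearer to 1, but how far it would do so here was not tested. The domains and the other chromosomes were not given at that cut, so 1.01 is not comparable with their values.

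**Figure D1:**
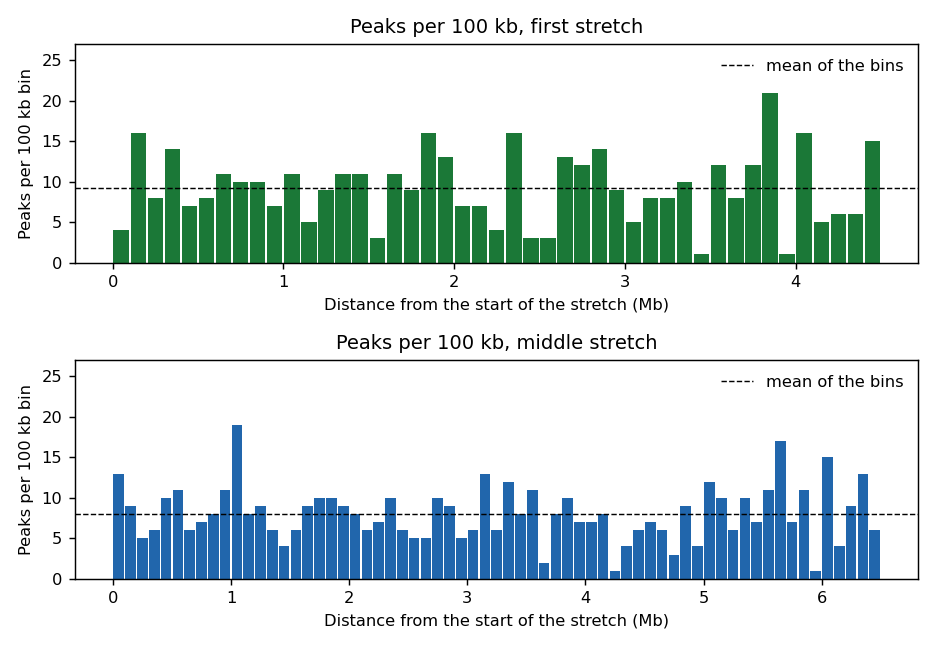
Number of members in each full 100 kb bin against the distance from the start of the stretch in Mb, for the first stretch (top) and the middle stretch (bottom); the dashed line is the mean over the bins. The first stretch has the fullest bin, with 21 members, and bins with a single member stand in both stretches.

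The fullest bin was 3800001 to 3900000 in the first stretch, where 21 members covered 5191 bp and had a median width of 232 bp. The median −log10 of their q-values, the authors' significance of enrichment corrected for multiple tests, was 3.37, against 4.46 for all members. A stronger peak here means one of lower q, and not one of a higher ratio of ChIP to control. In the middle stretch the bin from 8000001 to 8100000 held 19 members and that from 12600001 to 12700000 held 17. A further 4 bins held 16 members each, starting at 100001, 1800001, 2300001 and 4000001. The one from 2300001 held narrower peaks (median 133.5 bp) that covered 2616 bp, against 5177 to 6574 bp in the other three.

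At the other extreme, 4 bins of 100 kb held 1 member. They ran from 3400001 to 3500000 and from 3900001 to 4000000 in the first stretch, where the lone members were 12 and 3 bp wide. The others, from 11200001 to 11300000 and from 12900001 to 13000000, held members of 190 and 306 bp. The bin from 10600001 to 10700000 held 2. The fullest bin, from 3800001, and 1 of these nearly empty bins, from 3900001, were direct neighbours.

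The lowest density over a longer distance lay between 11 and 12 Mb, a stretch chosen after its values were seen. The bins from 11000001 to 11500000 and from 11500001 to 12000000 held 26 and 29 members, the lowest of the 22 bins of 500 kb. Together they held 55 members, against 85.3 per Mb in the rest of the middle stretch. Members covered 1.505% of this megabase and 3.02% of the rest of the middle stretch.

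The lower number lay among the weaker peaks, while the strongest peaks of the list were more numerous there. Among the 5724 peaks of the list with the lowest q, this megabase held 44, and the rest of the middle stretch held 42.0 per Mb. Among the other 5724 it held 11, against 43.3 per Mb. Of the 1144 peaks of the list with the lowest q it held 14, against 5.45 per Mb in the rest of the middle stretch, where single megabases held from 3 to 8. The median −log10 q of its members was 9.61 (quartiles 6.11 and 16.3), and 4.36 (quartiles 2.88 and 8.74) in the rest.

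**Figure D2:**
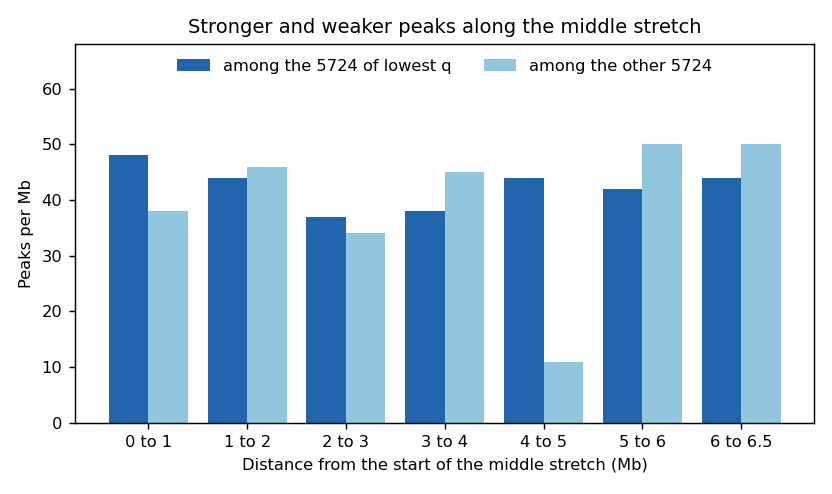
Members per Mb along the middle stretch, by distance from its start in Mb, split into those among the 5724 peaks of lowest q in the whole list (dark) and those among the other peaks (light). The last pair of bars covers 0.5 Mb and is scaled to 1 Mb; the pair at 4 to 5 Mb, which is 11 to 12 Mb of the chromosome, stands at 44 and 11.

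The read counts behind the q-values showed a second difference in this megabase. Whole ChIP and scaled control reads were recovered from the q-values for 961 of the 962 members. In this megabase no listed peak had fewer than 35 ChIP reads. In the 16 other full megabases of chromosome IV the lowest count was 18 to 23, and in all 96 other full megabases of the genome 17 to 24. Peaks under 100 bp wide had a median of 38 ChIP reads there, from 4 peaks, and of 18 to 28 reads in every other megabase. Members of at least 200 and under 400 bp had a median of 96 ChIP reads there (27 members) and of 61 in the rest of the middle stretch (250 members), with 20 and 22 scaled control reads.

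The median ratio of ChIP to control in that width class was 4.60 between 11 and 12 Mb (quartiles 3.65 and 6.68) and 2.85 in the rest of the middle stretch (quartiles 2.21 and 3.84). With only members of at least 35 ChIP reads, the rest of the middle stretch held 73.3 per Mb, against 55 in this megabase. That cut was this megabase's own lowest count and so removed none of its 55 members. It need not equal a limit set by the caller, so nothing is concluded from it. Whether the caller set a higher limit for this segment is not given in the sources used here. The density, the long gaps and the medians of this megabase therefore describe peaks listed above a higher lowest count, and the part of that count in them was not tested. Without this megabase the members lay at 88.4 per Mb, and the difference between the first and the middle stretch fell to 7.17 per Mb.

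**Figure D3:**
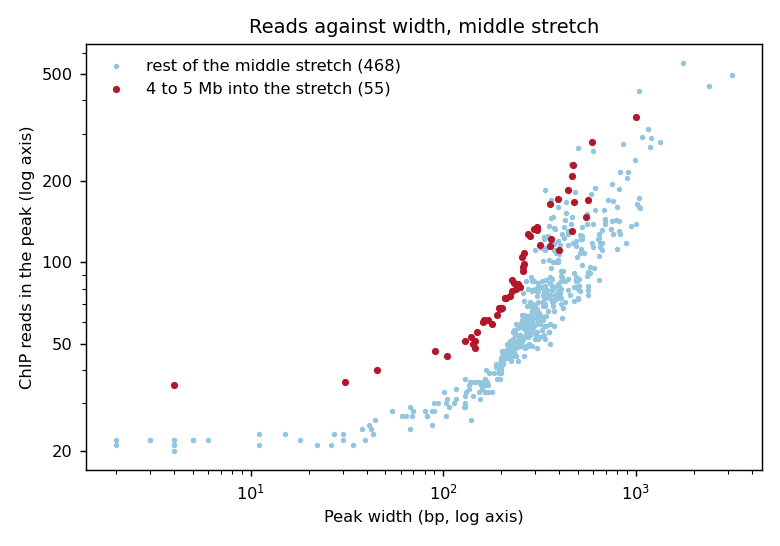
ChIP reads recovered for each member of the middle stretch against its width in bp, both on log axes; each point is 1 peak, and red points are the 55 members between 11 and 12 Mb of the chromosome. The lowest red point has 35 reads, and at widths of at least 200 and under 400 bp the medians are 96 (red) and 61 (blue).

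Gaps between neighbouring members had a median of 5269 bp (quartiles 1457 and 15692.5 bp, 959 gaps within the stretches). The first stretch had a median gap of 4546 bp and the middle stretch of 5745 bp. The piRNA domains had a like median of 5321 bp but a longer upper end: 10% of the gaps exceeded 41994 bp there and 30096 bp among the members. On the other chromosomes the median gap ranged from 2933 bp on II to 4139 bp on X. The shortest gap between members was 200 bp, the shortest in the whole list.

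The gaps were uneven. Of the 959 gaps, 186 (19.4%) were under 1 kb and 177 (18.5%) over 20 kb. Those over 20 kb took up 58.0% of the length of the stretches, and 69.8% of the length of the piRNA domains. The coefficient of variation of gap length, which is 1 for independent positions at an even density, was 1.36 in the first stretch and 1.34 in the middle stretch. In the left and right piRNA domains it was 1.57 and 1.56.

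**Figure D4:**
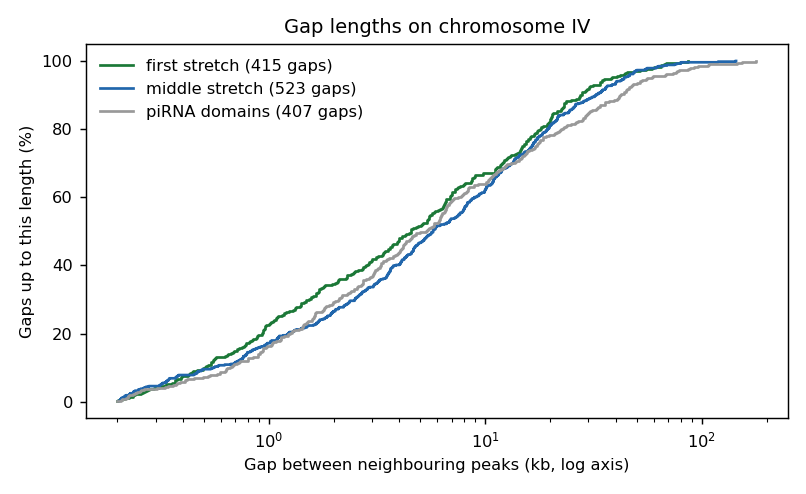
Cumulative share of gaps in percent up to each gap length in kb (log axis), for the first stretch, the middle stretch and the piRNA domains of chromosome IV. The first stretch has more gaps under 1 kb (22.7%, against 17.2% in the middle stretch), and the domains have more gaps over 20 kb (21.6%, against 17.6% in the first and 18.9% in the middle stretch).

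All of the 5 longest gaps but the third lay in the middle stretch. The longest, 144 kb from 12854988 to 12999166, was bounded by peaks of 559 and 306 bp. The next, 119 kb from 11179540 to 11298639, lay in the megabase with few weak peaks, as did the fourth, 80.5 kb from 11872142 to 11952644. No peak with fewer than 35 ChIP reads was listed in that megabase. In the first stretch the longest gap was 86.2 kb, from 2408909 to 2495065, and it lay next to a strong peak of 481 bp with a q of 3.46e-24. The fifth, 80.0 kb from 10576874 to 10656857, was bounded by weak peaks (q of 0.000199 and 0.00912). Gaps over 50 kb numbered 27 among the members and 27 in the shorter piRNA domains, where the longest was 179 kb.

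Many members came in small groups. Another member's midpoint lay within 2000 bp of 435 members, or 45.2% (95% exact binomial interval 42.0 to 48.4%, counting error only). The share was 51.9% in the first stretch (interval 47.0 to 56.8%) and 39.9% in the middle stretch (interval 35.7 to 44.2%), and 39.4% in the piRNA domains. With the 5724 peaks of lowest q it was 20.2% for all members. Members are not independent of their neighbours, so these intervals are too narrow for a comparison and none was tested. Other chromosomes ranged from 48.1% on X to 57.8% on II. A share within a fixed distance rises with peak density by itself. The density was 85.4 per Mb for the members, 66.0 in the piRNA domains and 100.8 to 149 on the other chromosomes. The shares were not adjusted for density, so they do not rank these regions, or the stretches, by how grouped their peaks are.

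When members no more than 2000 bp apart, edge to edge, were joined into runs, 484 members (50.3%) stood alone and 252 formed 126 pairs. A further 36 runs had 3 members and 15 had 4. Only 11 runs had 5 or more, with 58 members in all (6.03%). The longest run had 7 members from 10499829 to 10506880, which covered 2326 of its 7052 bp. A run of 6 members lay from 12615239 to 12622043, inside one of the fullest bins. Both runs were named after their values were seen.

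Widths and strengths overlapped between members close to a neighbour and isolated ones. The 211 members with a neighbour under 1 kb away had a median width of 239 bp (quartiles 136 and 394 bp) and a median ratio of ChIP to control of 3.07. The 34 members with none within 20 kb had a median width of 252.5 bp (quartiles 161.5 and 359 bp) and a median ratio of 3.87. The widest class was that with a neighbour at 1 to 2 kb, with a median of 326 bp over 224 members. The quartiles of width and of q overlapped between all classes of distance. The most isolated member, from 3466759 to 3466770, was 12 bp wide and lay 49.1 kb from the next, with 24 ChIP reads against 9, and was likewise named after its values were seen.

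Members had a median width of 283.5 bp (quartiles 185 and 402 bp) and covered 314 kb, or 2.79% of the stretches. The first stretch had the narrower peaks, with a median of 257.5 bp (quartiles 139.5 and 388 bp), against 294.5 bp (quartiles 208 and 405 bp) in the middle stretch. Peaks under 50 bp made up 48 of 416 members (11.5%) in the first stretch and 31 of 524 (5.92%) in the middle stretch. Those of at least 200 and under 400 bp made up 38.2% and 52.9%. The covered share was 2.76% in the first and 2.78% in the middle stretch, although the numbers per Mb differed. In the piRNA domains the median width was 309 bp and peaks covered 2.45%. Median widths on the other chromosomes ranged from 200 bp on II and III to 268 bp on X.

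**Figure D5:**
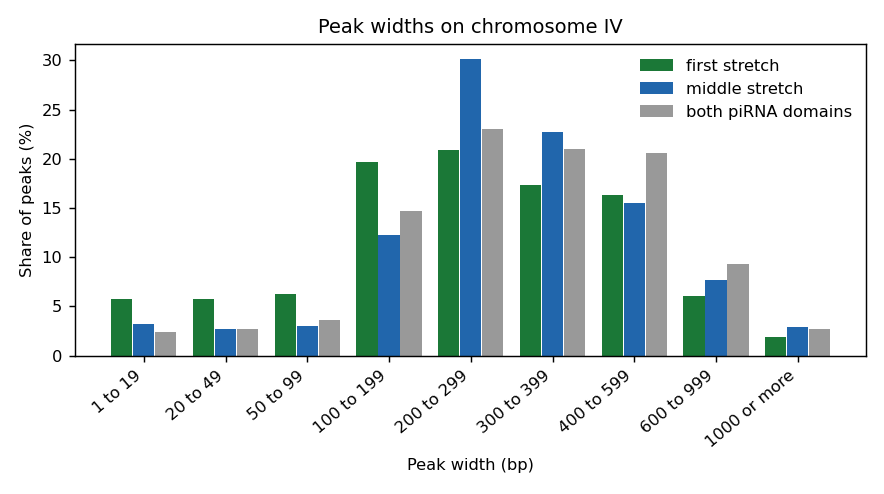
Share of peaks in percent in each class of width in bp, for the first stretch, the middle stretch and the piRNA domains of chromosome IV. The first stretch has the largest share in each class below 200 bp, and the middle stretch in both classes between 200 and 400 bp.

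The narrow peaks held few reads. The 43 members under 20 bp had a median of 22 ChIP reads against 6 scaled control reads, and the 252 members of at least 200 and under 300 bp had 54 against 19. The 24 members over 1000 bp had a median of 281.5 against 69. The median ratio of ChIP to control did not rise steadily with width. It was 3.67 under 20 bp, lowest with 2.77 at widths of at least 100 and under 200 bp, and 3.77 over 1000 bp. Wider members had lower q-values (Spearman's rho of width with −log10 q 0.70, 962 members), a description of peaks that share 1 list and in which wider peaks hold more reads. The rho was 0.77 in the first and 0.64 in the middle stretch.

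The 961 members with recovered reads had a median ChIP count of 61 (quartiles 40 and 94), a median scaled control count of 20 (quartiles 13 and 30) and a median ratio of 3.09. The ratio was 3.17 in the first, 3.00 in the middle and 2.57 in the end stretch, and 2.95 in the piRNA domains. In members of at least 200 and under 400 bp the control held 6.96 reads per 100 bp in the first stretch and 7.60 in the middle stretch, and 7.48 in the domains. ChIP reads in these members had medians of 61 and 63, and 59 in the domains. The part of the control in the densities was not tested. The ratios describe listed peaks only, since a limit on q chose them.

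Strong peaks stood in all 3 stretches. The member with the lowest q, 2.46e-73, ran from 8431466 to 8433224 in the middle stretch, was 1759 bp wide and held 548 ChIP reads (95% exact Poisson interval 503 to 596) against 100 control reads. In the whole list it ranked 32. The second, from 17278228 to 17279234 in the short end stretch, held 436 reads against 70, and the ninth, from 17249688 to 17250307, also in the end stretch, held 241 against 25. The third, from 654646 to 655110, was 465 bp wide and held 314 ChIP reads against 28.

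Of the 10 members with the lowest q, 4 lay in the first, 4 in the middle and 2 in the end stretch. The others in the first stretch were 3294552 to 3294978 (259 reads against 19), 1659041 to 1659878 (318 against 46) and 385019 to 385802 (276 against 37). In the middle stretch they were 10821378 to 10822411 (431 against 80), 13240409 to 13240910 (265 against 25) and 11025880 to 11026470 (281 against 42). Of the 1144 peaks of the list with the lowest q the members made up 83, or 7.26%, and of the 1144 ranked last 122, or 10.7%, beside their share of 8.40% in the list.

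Over all members, the highest ratio of ChIP to control was 29, from 4184828 to 4185017 in the first stretch, with 29 ChIP reads against 1 control read. Its 95% exact interval, for counting error only, ran from 4.81 to 1184, and the peak was named after its values were seen. The interval leaves out the way the reads were recovered. Another form of that back-calculation, given below, would move 1 read of this peak from ChIP to control and lower the ratio. Among members with at least 100 ChIP reads, the 5 highest ratios belonged to peaks from 378 to 620 bp wide. The peak from 3294552 to 3294978 led them with 13.6, at a width of 427 bp. It was followed by 654646 to 655110 with 11.2, 13240409 to 13240910 with 10.6, 4390481 to 4390858 with 10.4 and 17249688 to 17250307 with 9.64. Of these 5 peaks, 4 were also among the 10 with the lowest q.

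The 5 widest members spanned ratios from 2.09 to 5.48. The widest, 3150 bp from 10867702 to 10870851, held 495 ChIP reads against 237 control reads, the highest control of any member, and a ratio of 2.09. The next were 2405 bp from 13028980 to 13031384 (ratio 3.52), 2177 bp from 3350251 to 3352427 (3.88), the strongest peak from 8431466 to 8433224 (5.48) and 1697 bp from 3520649 to 3522345 (2.86). The lowest ratio of all members, 1.41, lay at 11070926 to 11071283, with 165 ChIP reads against 117, and was named after its value was seen.

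Counts on either side of the borders between stretches and domains depended on the window. The 250 kb before 4500000 held 23 peaks and the 250 kb after it, inside the domain, 30. At 7000000 the counts were 24 inside and 25 on the side of the members, and at 13.5 Mb they were 23 on the side of the members and 12 inside the domain. At 17.2 Mb they were 12 inside and 20 on the side of the members. In windows of 500 kb the direction at 4500000 turned, to 48 on the side of the members and 41 inside. The counts were then 43 and 39 at 7000000 and 47 and 31 at 13.5 Mb, in the same order. At 17.2 Mb the 22 members of the end stretch, which is only 0.263 Mb long, stood beside 24 peaks in 500 kb of the domain. The members nearest to the left domain ran from 4477136 to 4477426, 22.7 kb before it, and from 7011579 to 7011620, 11.6 kb after it. Those nearest to the right domain ran from 13487133 to 13487199, 12.8 kb before it, and from 17206419 to 17206809, 6.61 kb after it. The last border stood in a gap, since the nearest peak on the domain's side lay 79.3 kb away. The first member of the chromosome ran from 51121 to 51667, with 129 ChIP reads against 33, and the last from 17463031 to 17463455, with 72 against 36.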

How the data were processed

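The data are 1 list of peaks for the whole series. Per the file headers and its source column, regions were called with PeakSeq on WormBase build WS180, with a q-value from the authors for every peak. Not given in the sources used here are the aligner, the version and filters of the caller and how the replicates were merged, and the depth of the libraries is unknown. The authors' start and end positions were read as given, counted from 1.

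Midpoints decided membership. Gaps were measured edge to edge within a stretch, and the last peak of a chromosome served as its end. ChIP and scaled control reads were back-calculated over the whole list: a q-value times its rank, divided by the number of tested regions, was matched to a one-sided binomial tail of whole reads at 0.5, to within 1e-10 on the natural log scale. The number of tested regions, 15494, was the one that matched most of the weakest 400 peaks. A tail without the observed count would move 1 read of each peak from ChIP to control. Control reads are after the caller's scaling. The scripts were tested on simulated data (Python 3.11.15, numpy 2.4.6, pandas 2.3.3, scipy 1.17.1).

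No tests were made, because the list has no replicates; spreads are between bins or peaks. The members and the measures were chosen with earlier results of these data known. Positions are named by rank: the 10 lowest q, the 5 widest, the 5 highest ratios with at least 100 ChIP reads, the 5 longest gaps, the 5 fullest 100 kb bins with their ties, the emptiest ones and the members next to each border. Gene names and sequences were left out, since no genome or annotation of build WS180 was used here. Alternatives were a stricter q, minimum widths, shifted domain borders, membership of whole peaks, joined peaks, other distances and bins, another start of the stretches and the other tail.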

Additional observations from a re-analysis of the deposited data

How the results depend on the processing

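Of 77 values recomputed, 60 kept their sign and stayed within 1.5 times (for the share with a near neighbour, within its binomial interval). The median width, the longest gap, the median ratio and the rho of width and q did so under every alternative run on them. For the longest gap this says little, since removing peaks can only keep or lengthen it. Membership of whole peaks left the same 962 members, so its values could not move. With the 5724 peaks of lowest q there were 42.3 members per Mb, a median gap of 14775 bp, a share with a neighbour within 2000 bp of 20.2%, a Fano factor of 1.01, a difference of 11.1 per Mb to the piRNA domains and of 0.137 per Mb between the first and the middle stretch. With peaks of at least 200 bp, the median gap was 7924 bp, the share 34.0%, the difference to the domains 10.95 per Mb, and the first stretch lay below the middle one (-5.76 per Mb). With peaks of at least 50 bp, the first stretch lay 5.93 per Mb above it, and without the megabase from 11 to 12 Mb, 7.17. The share was 21.9% within 1000 bp, 70.6% within 5000 bp and 30.8% with peaks under 500 bp apart joined. Shifting the domain borders by 250 kb kept all 10 results within those limits. The megabase from 11 to 12 Mb lay below the rest of the middle stretch by a difference of -30.3 per Mb, of -18.3 per Mb with at least 35 ChIP reads, and 2 per Mb above it in the 5724 peaks of lowest q. These settings and the omission of that megabase were chosen after seeing the data. A lower density and longer gaps follow from removing peaks. A lower share with a near neighbour, smaller differences per Mb and a lower Fano factor can also follow from it. How much of each would follow was not tested. A shorter or longer distance lowers or raises the share by definition. The cause of the other moves was not tested.

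No paired analysis was possible because both replicates enter 1 merged list, and leaving out a replicate was not run for that reason. No alternative adds a peak to the list, since regions above the q limit were not used here. Narrowing the domains raised the number of members to 1040 by taking in listed peaks of the domains.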

Other observations

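Widths of neighbouring members showed almost no rank correlation. Across the 523 pairs of neighbouring members in the middle stretch, Spearman's rho of their widths was -0.012, and across the 415 in the first stretch 0.032; the pairs share 1 list and overlap each other. Lengths of consecutive gaps gave a rho of 0.12 in the first and 0.021 in the middle stretch.

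Across the 22 full bins of 500 kb, fuller bins had members with fewer ChIP reads (Spearman's rho -0.66 between the number of members and their median ChIP reads). The bins share 1 list and the same libraries, and include the pair between 11 and 12 Mb. The scaled control per 100 bp in members of at least 200 and under 400 bp was higher farther along the chromosome (rho 0.60 over the same bins, each with 10 to 32 such members), while its rho with the number of members was -0.081.

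The most isolated members after that from 3466759 differed in strength, and were also named after their values were seen. The member from 3943100 to 3943102 lay 47.1 kb from the next and held 22 ChIP reads against 7. That from 11765647 to 11765843 lay 44.1 kb away and held 67 against 13. Of all members, 1 peak of 3 bp from 13306319 to 13306321 matched more than 1 pair of read counts and has no reads here.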
